A study of Homo sapiens with 4 samples.

Results

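The 10 genes described here are DKK1, DKK3, SFRP1, SFRP2, WNT5A, WNT5B, LRP6, AXIN2, TCF7L2 and CTNNB1, all of them components of the Wnt pathway. They were taken by symbol from the 26506 genes of the RNA-seq tables, and all 10 are listed in both tables with a value in each library. The set was chosen by the FPKM change of DKK1, which had already been seen to move in opposite directions in the pair of cell lines, so the change of DKK1 is given as a description. HeyC2 and SKOV3 are human ovarian cancer cell lines. Each was transfected with lipofectamine 2000 and 3 μg of either pCMV6/TET1, a plasmid that expresses the DNA demethylase TET1 from the CMV promoter, or the empty plasmid, and was then kept under Geneticin at 400 μg/ml. The labels give the genotype of the cells with empty plasmid as wild-type and that of the others as TET1 overexpressed. The amount of plasmid, the transfection reagent and the selection were shared by both groups of a line. Whether the selected cells were pools or clones is not given in the sources used here. One library was sequenced for each of the 4 conditions, so no change could be set against the spread between replicates and no p-value is given. The study recalls earlier work in which TET1 acted on Wnt signaling through the antagonists SFRP2 and DKK1, and the question here is what these genes and their partners did in both lines.

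In canonical Wnt signaling, secreted Wnt ligands bind Frizzled receptors and the co-receptors LRP5 and LRP6, which stops the destruction complex from degrading β-catenin, and β-catenin then acts with TCF/LEF factors on target genes. Dickkopf proteins such as DKK1 block the pathway by binding LRP5 and LRP6, and secreted Frizzled-related proteins such as SFRP1 and SFRP2 bind the ligands. Several targets, AXIN2 and DKK1 among them, encode inhibitors and act as negative feedback, while WNT5A and WNT5B mainly signal without β-catenin.

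The 250 bases before the start sites of DKK1 and SFRP2 are shown first, because these are the antagonists that earlier work tied to demethylation by TET1 and because DKK1 is also a β-catenin target. Both are read 5′ to 3′ from the RefSeq promoter table of GRCh38.p14, with capitals for the letters CTTTGA or CTTTGT on either strand, the core that TCF/LEF factors recognise. The DKK1 window is chr10:52314031-52314280 on the plus strand and the SFRP2 window is chr4:153789084-153789333 on the minus strand.
DKK1: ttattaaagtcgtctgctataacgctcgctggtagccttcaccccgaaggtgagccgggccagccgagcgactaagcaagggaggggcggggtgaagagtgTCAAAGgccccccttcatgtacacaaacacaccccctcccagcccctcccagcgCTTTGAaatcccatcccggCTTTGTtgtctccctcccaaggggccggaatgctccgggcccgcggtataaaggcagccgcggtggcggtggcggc
SFRP2: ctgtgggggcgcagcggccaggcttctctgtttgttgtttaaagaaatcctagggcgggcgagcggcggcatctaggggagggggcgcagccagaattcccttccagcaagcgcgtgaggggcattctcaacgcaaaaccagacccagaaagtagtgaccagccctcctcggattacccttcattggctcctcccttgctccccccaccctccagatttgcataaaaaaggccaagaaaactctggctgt
The DKK1 window held 3 of these cores, at 149, 95 and 76 bases before the start site, counted to the first letter of each. Of 35116 such windows in the table, 22.8% held at least 1 core and 0.584% held 3 or more. Among 106 windows of the Wnt pathway genes read below, 16 or 15.1% held at least 1 core. None was found in the SFRP2, WNT5A, WNT5B or CTNNB1 windows, and 1 of the 3 TCF7L2 windows held a single core. CpG dinucleotides numbered 18 in the DKK1 window and 11 in the SFRP2 window, beside a median of 11 over all windows. Of all windows, 63.2% had fewer than the DKK1 window and 49.7% fewer than the SFRP2 window. These matches describe letters only, and neither factor binding nor methylation was measured in the libraries used here. The table held entries for 6 of the 10 genes, and AXIN2, DKK3, LRP6 and SFRP1 were not among them.

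Levels are FPKM, fragments scaled to transcript length and to the size of the library. In each deposited table GAPDH had exactly the same value in both columns, 5417.35 in HeyC2 and 2248.44 in SKOV3, and the values of the TET1 column became multiples of 0.01 when divided by a constant, 3.23 in HeyC2 and 1.35 in SKOV3. Dividing by that constant puts both libraries of a line on their own FPKM scale, on which GAPDH is 1675 and 1671 in the TET1 libraries, and all levels below are on it. A change is the log2 ratio of TET1 to control after adding 1 FPKM to each, minus the median change of all genes with a mean of at least 1 FPKM in that line, and such genes are called counted. The median taken off was 0.06 in HeyC2 and 0.19 in SKOV3, against 1.63 and 0.58 on the deposited values. A gene is called higher or lower where it differs from that median by at least 1.5-fold. Fragments behind each gene were estimated from the steps between low FPKM values, and 95% exact intervals from them cover counting error only. TET1 itself was at 0.20 FPKM in HeyC2 control and 0.519 in HeyC2 TET1, an estimated 14 and 34 fragments, and at 0.43 and 1.80 FPKM in SKOV3, an estimated 29 and 116. The keratins KRT8 and KRT18 and the Müllerian factor PAX8 were present in all 4 libraries, whereas WT1, MUC16 and CDH1 were at 0 in HeyC2. WT1 and MUC16 were low in SKOV3 too, at 0 and 0.528 FPKM and at 0.05 and 0.00743 in control and TET1. EPCAM was at 0.09 and 0.38 FPKM in HeyC2. The log2 levels of the SKOV3 pair correlated at 0.910 across genes and those of the HeyC2 pair at 0.962. The 6 epithelial markers summed to 1144 and 1892 FPKM in HeyC2 control and TET1 and to 2563 and 1075 in SKOV3. KRT7 was at 290 and 1125 FPKM in HeyC2 and at 1537 and 21.96 in SKOV3, and KRT19 at 0.62 and 1.59 and at 255 and 0.461, both running with DKK1. The other epithelial markers did not, with KRT8 at 560 and 775 FPKM, KRT18 at 193 and 255, EPCAM at 15.4 and 16.1 and CDH1 at 2.24 and 6.30 in SKOV3. The 2 mesenchymal markers summed to 7523 and 2970 FPKM in HeyC2 and 1245 and 863 in SKOV3, nearly all of it VIM. The 4 ovarian markers summed to 175 and 272 FPKM in HeyC2 and 84.9 and 132 in SKOV3, where MSLN was at 10.3 and 0.0817. The summed level of the 5 fibroblast markers was 0.91 to 2.88 FPKM in 3 libraries and 32.5 in SKOV3 TET1, where COL1A1 was at 27.7, with 2 or 3 of the 5 at 0, and that of the leukocyte markers was 0.331 to 0.609. The sum of the 3 endothelial markers was 19.4 and 94.8 FPKM in HeyC2 control and TET1, nearly all of it CDH5 at 18.9 and 94.6, and at most 0.364 in SKOV3. Their part in the results below was not tested.

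In HeyC2, 8 of the 10 genes were counted, of which DKK1 and SFRP1 were higher after TET1 and WNT5A, WNT5B and LRP6 were lower. Over all 11894 genes counted in that line, 12.5% were higher and 9.17% were lower. In SKOV3, 8 were counted as well, of which DKK3, SFRP1, WNT5A and AXIN2 were higher and DKK1 was lower. Over all 13013 genes counted there, 20.7% were higher and 18.2% were lower. The median change of the counted members was -0.42 in HeyC2 and 0.57 in SKOV3. The falls in HeyC2 depend on the reference, since on the deposited values with GAPDH as the reference and no centring the changes of WNT5A, WNT5B and LRP6 were 0.80, 0.72 and 0.84. Relative to the all-gene median, DKK1 and WNT5A moved in opposite directions in the lines, and SFRP1 was higher in both. AXIN2 was counted in SKOV3 only through its TET1 library, so it could not have been counted as lower.

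**Figure D1:**
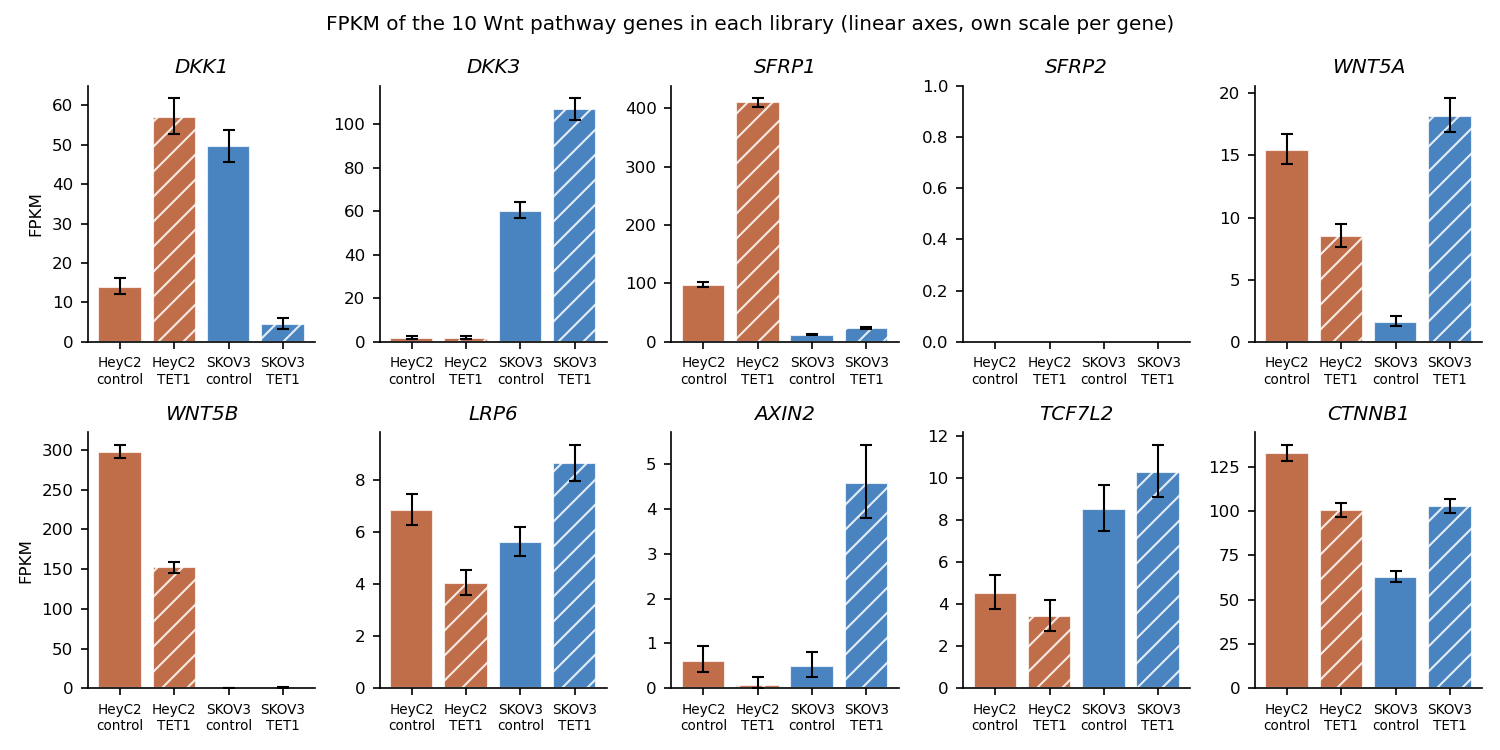
FPKM of the 10 genes in the 4 libraries, as columns on linear axes that start at 0 and differ between genes, with error bars for the 95% counting interval and hatching for the TET1 libraries. DKK1 lies at 14.03 and 57.2 in HeyC2 control and TET1 and at 49.7 and 4.50 in SKOV3, and SFRP2 is at 0 throughout.

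DKK1 encodes the secreted LRP5/6 blocker Dickkopf-1 and lies on GRCh37 at chr10:54074041-54077802 on the plus strand, with 4 exons. Its level was 14.03 FPKM in HeyC2 control, 57.2 in HeyC2 TET1, 49.7 in SKOV3 control and 4.50 in SKOV3 TET1, from an estimated 170, 630, 580 and 49 fragments. The order of the libraries was therefore reversed between the lines. The counting intervals of HeyC2 TET1, 52.8 to 61.8 FPKM, and of SKOV3 control, 45.7 to 53.9 FPKM, overlapped, and those of the other libraries overlapped with none. Relative to the all-gene median the change was 1.89 in HeyC2, or 3.72-fold higher, and -3.39 in SKOV3, or 10.5-fold lower. Without the added 1 FPKM the log2 ratios were 1.97 with an interval of 1.72 to 2.22 and -3.65 with an interval of -4.11 to -3.24. Of the 339 counted genes on 10q in HeyC2, 336 had a smaller change than DKK1, and of the 376 in SKOV3, 1 had a lower one. The difference between the lines was 5.29, which ranked 9 from the top of 11134 genes counted in both. This pair of directions, higher in HeyC2 and lower in SKOV3, was met by 1.77% of those genes. DKK1 was chosen because it was seen to move in this way. Its place on 10q, its rank and this share therefore describe the choice and are no evidence that DKK1 is exceptional. The antisense gene PRKG1-AS1 shares 227 exonic bases with DKK1, and the counting strand is not given in the sources used here. PRKG1-AS1 was at 0.52 and 0.281 FPKM in HeyC2 and at 0 in SKOV3, far under DKK1 in each library.

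DKK3, a divergent member of the Dickkopf family, was expressed mainly in SKOV3. Its level was 1.74 FPKM in HeyC2 control, 1.84 in HeyC2 TET1, 60.3 in SKOV3 control and 107 in SKOV3 TET1. Both SKOV3 libraries were above both HeyC2 libraries. The change was -0.01 in HeyC2 and 0.62 in SKOV3, the latter 1.54-fold higher and so close to the 1.5-fold limit. The gene USP47 overlaps annotated DKK3 exons on the other strand by 5681 bases, and its levels, 10.9 and 10.4 FPKM in HeyC2 and 18.5 and 17.6 in SKOV3, stayed inside the limits. USP47 was thus above DKK3 in HeyC2 and below it in SKOV3. Because the counting strand is not given, a part of USP47 fragments in the low HeyC2 level of DKK3 was not tested.

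SFRP1, a secreted ligand-binding antagonist, was the member that was higher in both lines. It stood at 98.1 FPKM in HeyC2 control and 410 in HeyC2 TET1, and at 12.4 in SKOV3 control and 23.5 in SKOV3 TET1. The HeyC2 libraries were above both SKOV3 libraries. The change was 1.99 in HeyC2, or 3.98-fold, and 0.68 in SKOV3, or 1.60-fold. SFRP1 lies on 8p, where the 134 counted genes had a median change of 0.37 in HeyC2, and 132 of them were below SFRP1. In SKOV3 the 8p median was -0.26. The direction shared by SFRP1 in both lines was found in 3.56% of the genes counted in both.

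SFRP2, the other secreted Frizzled-related antagonist tied to TET1 in earlier work, was listed at 0 in all 4 libraries. At the estimated depths, 3 fragments of SFRP2 correspond to 0.222 to 0.246 FPKM, so a level below that would not have been detectable. No change can be given for it.

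Summed over the 13 secreted antagonists of the pathway, the level was 114 FPKM in HeyC2 control and 470 in HeyC2 TET1, and 123 and 139 in SKOV3. In HeyC2 the make-up of the sum was nearly the same in both libraries, with SFRP1 at 86.0% and 87.2% and DKK1 at 12.3% and 12.2%. In SKOV3 it was different, since DKK1 made up 40.4% in control and 3.25% in TET1 while DKK3 made up 49.0% and 76.9%. The SKOV3 sum therefore rests on DKK3, the divergent family member, at 60.3 and 107 FPKM, while DKK1 was at 49.7 and 4.50. It does not show that antagonists other than DKK3 kept their level, since DKK1 fell and SFRP1 was at 12.4 and 23.5 FPKM. DKK1, DKK3 and SFRP1 thus carried nearly all of the antagonist transcript in each library.

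**Figure D2:**
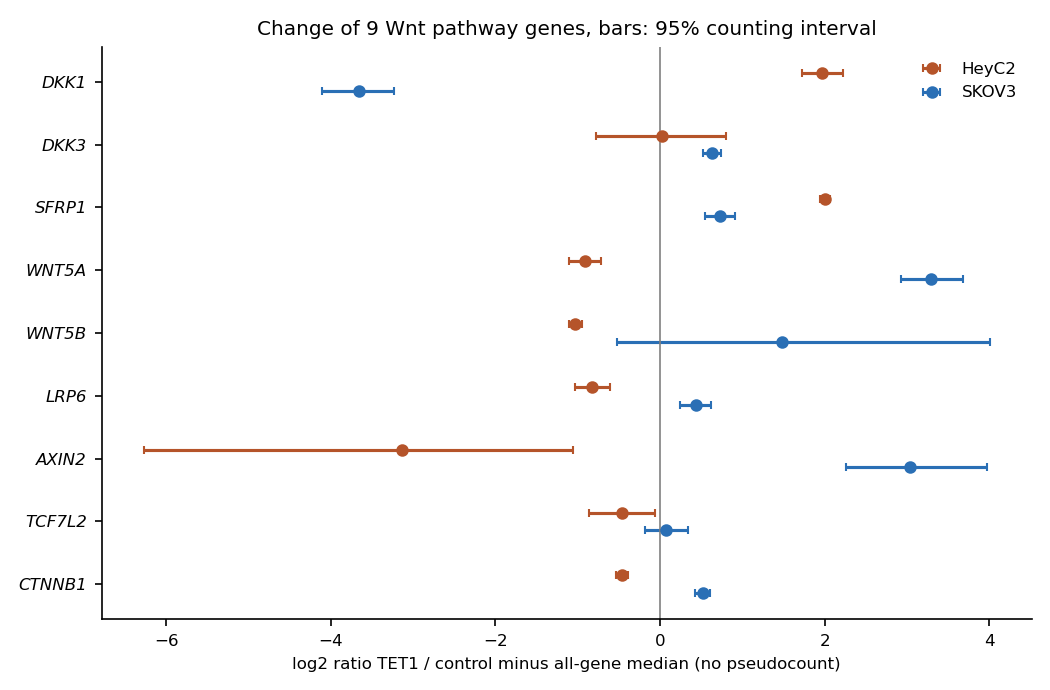
Log2 ratio of TET1 to control without the added 1 FPKM, minus the all-gene median, for the 9 members with fragments, in HeyC2 and SKOV3, with bars for the 95% counting interval. DKK1 and WNT5A lie on opposite sides of 0 in the lines, at 1.97 and -3.65 and at -0.91 and 3.29, and the widest bars belong to AXIN2 in HeyC2 and WNT5B in SKOV3.

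WNT5A, a ligand of the β-catenin-independent branch, ran opposite to DKK1. It was at 15.5 FPKM in HeyC2 control, 8.55 in HeyC2 TET1, 1.63 in SKOV3 control and 18.2 in SKOV3 TET1, from an estimated 644, 331, 66 and 706 fragments. The SKOV3 control library alone was low. The change was -0.84 in HeyC2, or 1.79-fold lower, and 2.68 in SKOV3, or 6.39-fold higher. Because the control level in SKOV3 is near the added 1 FPKM, the ratio without it was larger, 3.29 on the log2 scale after centring, with an interval of 2.93 to 3.68. The difference between lines was -3.52 and ranked 12 from the bottom of 11134, and 1.38% of genes were lower in HeyC2 and higher in SKOV3.

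WNT5B, its close paralog, was nearly absent from SKOV3. The level was 298 FPKM in HeyC2 control and 152 in HeyC2 TET1, against 0.21 and 0.669 in SKOV3, where an estimated 3 and 9 fragments stood behind it. The SKOV3 change was not counted, and the counting interval of its ratio held 0 on the log2 scale. In HeyC2 the change was -1.02, or 2.03-fold lower.

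LRP6, the co-receptor that DKK1 binds, was at 6.86 FPKM in HeyC2 control, 4.04 in HeyC2 TET1, 5.61 in SKOV3 control and 8.64 in SKOV3 TET1. It was 1.62-fold lower in HeyC2, with a change of -0.70, and stayed inside the limits in SKOV3, at 0.35. LRP6 and WNT5B both lie on 12p, and this arm stood apart in HeyC2. Its 152 counted genes had a median change of -0.72, 88.8% of them were below 0 and 61.2% were lower, against 9.17% of all genes. LRP6 differed from that median by 0.02, with 80 of the 152 genes below it, and WNT5B differed by -0.30, with 41 below it. In SKOV3 the median of 12p was 0.05. The share of the arm in both falls was not tested beyond these values.

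**Figure D3:**
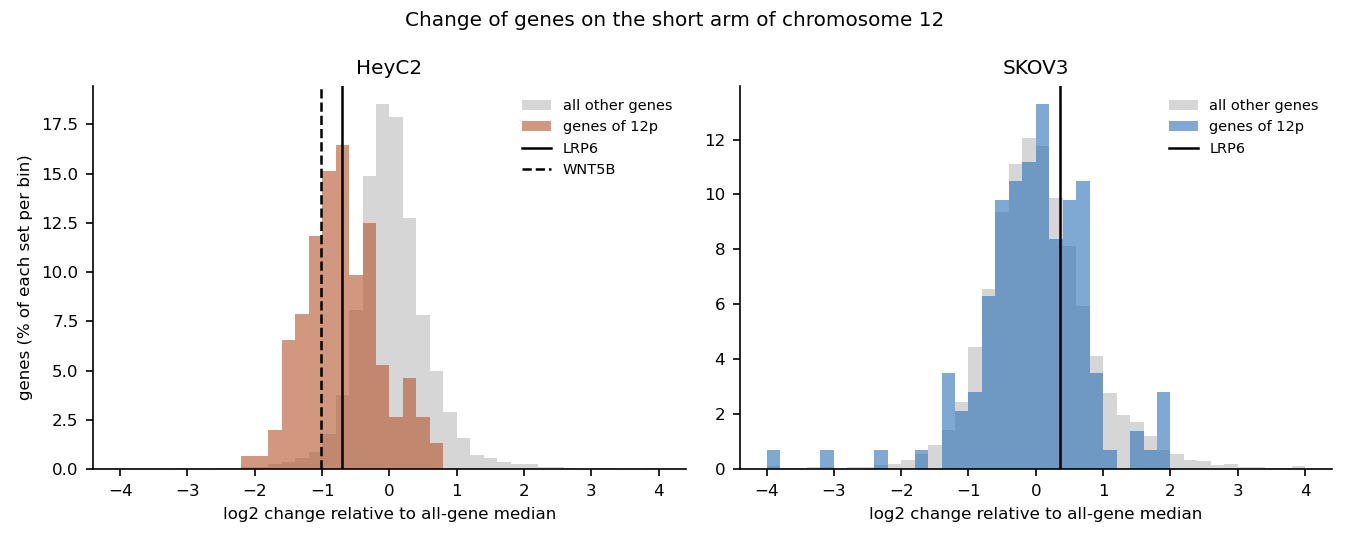
Histograms of the relative log2 change of the counted genes of chromosome arm 12p (coloured) and of all other genes (grey) in HeyC2 and SKOV3, as the percentage of each set per bin, with values beyond the axis put in the end bins and lines at LRP6 and, in HeyC2, WNT5B. In HeyC2 the genes of the arm lie around a median of -0.72, left of the other genes, and in SKOV3 they lie around 0.05.

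AXIN2, a destruction-complex scaffold whose transcript is a widely used readout of β-catenin activity, was low in 3 of the libraries. It was at 0.60 FPKM in HeyC2 control, 0.0711 in HeyC2 TET1, 0.49 in SKOV3 control and 4.58 in SKOV3 TET1, from an estimated 18, 2, 14 and 127 fragments. Only the SKOV3 TET1 library was above 1 FPKM. The SKOV3 change was 1.71, or 3.28-fold higher, with a ratio without the added FPKM of 3.03 and an interval of 2.26 to 3.97. In HeyC2 the mean was under 1 FPKM and the gene was not counted, and the ratio without the added FPKM had an interval of -6.27 to -1.06.

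CTNNB1, which encodes β-catenin, was at 133 FPKM in HeyC2 control, 100.5 in HeyC2 TET1, 62.8 in SKOV3 control and 103 in SKOV3 TET1. Its change of -0.46 in HeyC2 and 0.51 in SKOV3 did not reach the 1.5-fold limit. That call depends on the setting in SKOV3, where the change was 0.60 with a mean of at least 5 FPKM, 0.61 with upper-quartile scaling, 0.70 without centring and 0.76 with TPM rescaling, all past the limit. Centred on its chromosome arm, 3p, it was 0.30, inside the limit. On the deposited values without centring CTNNB1 was at 1.28 in HeyC2 and 1.13 in SKOV3. TCF7L2, a TCF/LEF partner of β-catenin, was at 4.53, 3.43, 8.56 and 10.3 FPKM in the same order, with changes of -0.38 and 0.05. Relative to the all-gene median both genes were below 0 in HeyC2 and above 0 in SKOV3, although on the deposited values without centring TCF7L2 was at 1.13 and 0.64, and of the 4 counting intervals that of TCF7L2 in SKOV3, -0.18 to 0.33, was the one that held 0.

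**Figure D4:**
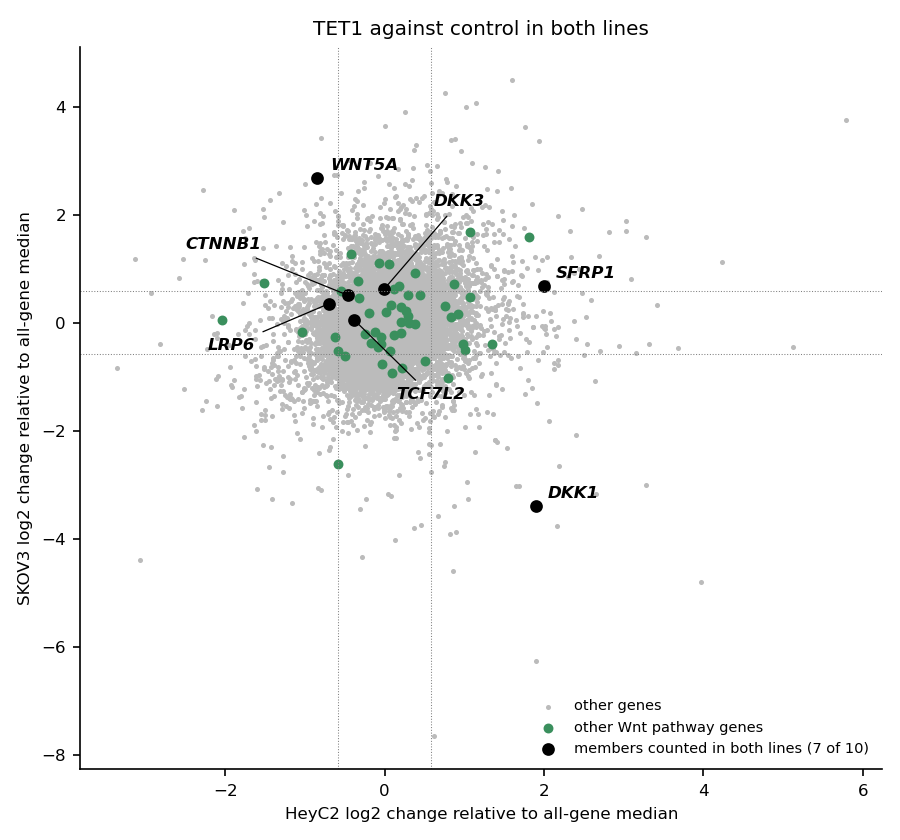
Relative log2 change in HeyC2 (horizontal) against SKOV3 (vertical) for the 11134 genes counted in both lines, with other Wnt genes in green, the 7 members counted in both in black and dotted lines at 1.5-fold. DKK1 lies at the lower right and WNT5A at the upper left, both away from the bulk of genes.

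The starting levels of the lines also differed, with the limit that the tables were made separately. In the control libraries and relative to the all-gene median, SFRP1, WNT5A and WNT5B were at least 4-fold higher in HeyC2, as were 6.84% of 12488 genes. DKK3 was at least 4-fold higher in SKOV3, as were 5.99% of genes. The difference for DKK1 was -1.49 and did not reach that size.

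Beyond the 10 members, 108 Wnt pathway genes including them were read by role. In HeyC2 61 were counted, of which 14 were higher and 9 lower with a median of 0.10, beside 12.5% and 9.17% of all genes. In SKOV3 72 were counted, of which 22 rose and 10 fell with a median of 0.20, beside 20.7% and 18.2% of all genes, and the same shares stand behind the counts by role below. The filter on the mean bears on these counts, since 8 of the 22 in SKOV3 and 3 of the 14 in HeyC2 were below 1 FPKM in control and were counted only through the TET1 library. Of 58 counted in both, DKK1 and WNT7A were higher in HeyC2 and lower in SKOV3, as were 1.77% of all genes counted in both. WNT5A and FZD8 were the reverse, as were 1.38%. SFRP1, FZD4, LGR5 and VANGL2 were higher in both, as were 3.56%, and CCND1 was lower in both, as were 2.54%. VANGL2 in both lines and LGR5 in SKOV3 were counted only through the TET1 library, so they could not have been counted as lower there.

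Among the ligands, 2 of 6 counted were higher and 2 lower in HeyC2, beside 12.5% and 9.17% of all genes, and 2 of 7 were higher and 4 lower in SKOV3, beside 20.7% and 18.2%. WNT7A was at 16.3 and 30.3 FPKM in HeyC2 control and TET1 and at 53.8 and 29.7 in SKOV3, the same pair of directions as DKK1 at a smaller size. WNT9A was higher in HeyC2, from 0.88 FPKM in control, with a change of 1.35, and was counted there only through its TET1 library. WNT10A was lower in SKOV3, 5.11 against 0.342 FPKM, where it was counted only through its control library, and was at 0 in HeyC2. WNT7B, at 38.4 and 28.9 FPKM in SKOV3, had a change of -0.59, at the edge of the limit.

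Of the receptors, 5 of 11 counted were higher and 4 lower in HeyC2, beside 12.5% and 9.17% of all genes, and in SKOV3 5 of 16 were higher and none was lower, beside 20.7% and 18.2%. Higher in HeyC2 were the non-Frizzled Wnt receptors RYK, at 31.5 and 69.9 FPKM, ROR1, at 1.63 and 4.49, and PTK7, at 41.5 and 77.6, with LRP5, the other target of DKK1, at 11.2 and 23.2, and FZD4, at 4.84 and 10.2. Lower there beside LRP6 were FZD8, at 18.4 and 6.11 FPKM, FZD7, at 9.53 and 4.36, and FZD1, at 8.69 and 5.71. The FZD1 change of -0.59 was at the edge of the limit. The LRP5 change of 0.92 was thus opposite in sign to the -0.70 of LRP6 in HeyC2. KREMEN2, a Dickkopf receptor that acts with DKK1 on LRP6, had the largest change of the receptors in SKOV3, from 0.86 to 13.1 FPKM or 2.73, while DKK1 fell in the same library. KREMEN2 was counted there only through its TET1 library, so it could not have been counted as lower. FZD2, at 25.5 and 47.3 FPKM, and FZD8, at 1.31 and 3.38, were higher in SKOV3 too, and FZD6 stayed inside the limits in both lines.

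The β-catenin targets are given gene by gene. In HeyC2, 7 of 15 were counted, of which DKK1 and the stem cell receptor LGR5 were higher, TCF7 and the cyclin CCND1 lower and the other 3 inside the limits. LGR5 was at 10.9 and 25.1 FPKM, TCF7 at 20.2 and 4.38, and CCND1 at 329 and 228 with a change of -0.59, at the edge of the limit. In SKOV3, 10 of the 15 were counted, of which 5 were higher and 3 were lower. The 5 were AXIN2, LGR5 at 0.03 and 2.75 FPKM, the Wnt deacylase NOTUM at 0.34 and 2.86, the TCF/LEF factor LEF1 at 0.17 and 1.88, and TNFRSF19 at 0.42 and 2.39. Each of these was under 1 FPKM in SKOV3 control and was counted only through its TET1 library, so the count of 5 is partly set by the filter. The 3 lower targets were DKK1, CCND1, at 145 and 26.2 FPKM, and MYC, at 69.4 and 43.8, all of them well expressed in the control.

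Of the dishevelled and destruction-complex genes, 1 of 13 was higher in HeyC2 and 3 of 15 rose and 2 fell in SKOV3. Of the nuclear factors, 1 of 12 was higher and 1 lower in HeyC2 and 4 of 14 were higher in SKOV3, among them the co-repressor TLE2, at 5.41 and 22.9 FPKM. Of the R-spondin axis, 1 of 2 was higher in HeyC2 and 1 of 3 in SKOV3, in both cases LGR5. Of the planar polarity genes, 2 of 9 were higher and 1 lower in HeyC2 and 3 of 8 were higher in SKOV3. VANGL2, a core polarity protein, was at 0 and 2.64 FPKM in HeyC2 and 0.03 and 2.52 in SKOV3, and PRICKLE2 was at 0.80 and 3.98 in SKOV3. VANGL2 in both lines and PRICKLE2 in SKOV3 were counted only through the TET1 library, so the counts of planar polarity genes are partly set by the filter. PORCN, which acylates Wnt ligands, was lower in SKOV3 and the ligand carrier WLS stayed inside the limits in both lines.

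**Figure D5:**
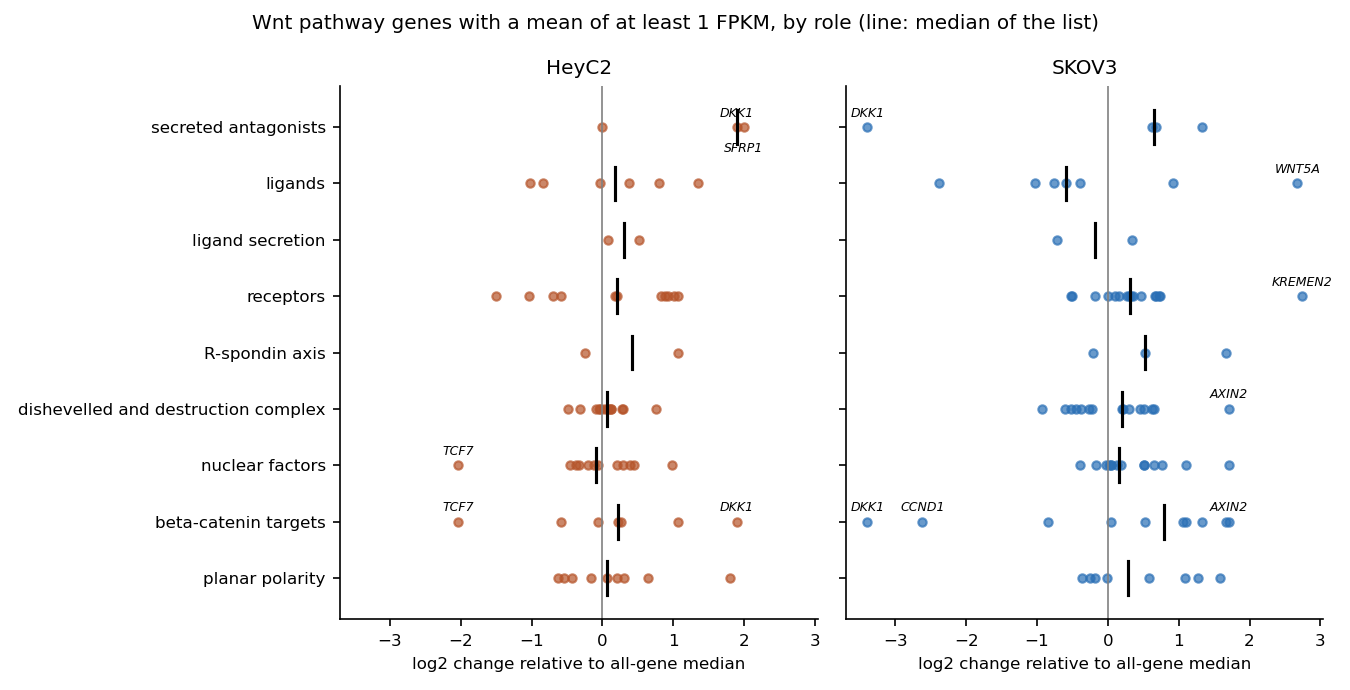
Relative log2 change of each counted Wnt pathway gene by role in HeyC2 (left) and SKOV3 (right), with a vertical bar at the median of each list. Among the antagonists DKK1, at 1.89, lies next to SFRP1 far to the right in HeyC2 and at the left end, at -3.39, in SKOV3.

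The genes whose pair of changes lay nearest to that of DKK1, by Euclidean distance over the changes of the lines, were LINC01057 at 0.42, FGFBP1 at 0.44, DUSP1 at 0.46, RHOD at 0.79 and SLCO4A1 at 0.80. FGFBP1, which encodes a secreted FGF-binding protein, was at 169 and 792 FPKM in HeyC2 and at 118 and 9.10 in SKOV3. DUSP1, a phosphatase of MAP kinases, was at 59.6 and 196 FPKM in HeyC2 and at 476 and 66.7 in SKOV3. The distance was taken over 4 libraries only, and the directions that these 5 genes share with DKK1 follow from how they were picked.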

How the data were processed

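RNA-seq libraries of HeyC2 and SKOV3 cells with pCMV6/TET1 or empty plasmid, 1 for each condition, were analysed. The submitters' processing notes name Bowtie2 2.2.6, RSEM 1.2.17 and hg19. The authors deposited FPKM per gene in 1 table for each line. That both columns were set to the same GAPDH value was read from the tables. The constant was recovered because 99.8% of the 1220 distinct TET1 values below 40 in HeyC2, and 99.5% of 2637 in SKOV3, lay within 0.0055 FPKM of a multiple of 0.01 after division. Fragments were estimated from the steps between low values and the transcript lengths of GENCODE release 44 on GRCh37, at 6865000 to 7315000 a library, so depth is an estimate. Intervals are 95% exact (Clopper-Pearson for ratios, Poisson for levels). No test was run. In simulated data, 200 of 200 planted 4-fold changes were called in each line. Only counting noise was simulated. Changes near 1.5-fold, changes of genes below 1 FPKM in control, false calls and spread between libraries were not covered, so the calls are not tested by it. Named genes were the 10 members, other Wnt genes with at least a 2-fold change (up to 8 a line), antagonists, receptors and ligands at 5 FPKM or more (up to 12 by level), the 5 genes nearest to DKK1, and TET1 and GAPDH. LEF1, TNFRSF19, MYC, PORCN and WLS were named after their values were seen. The members and lists were chosen with earlier results of these data known. Alternatives covered the pseudocount, filter, scaling, centring, chromosome arm and threshold. Calculations were made in Python 3.11.15 (numpy 2.4.6, scipy 1.17.1, pandas 2.3.3).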

Additional observations from a re-analysis of the deposited data

Results flagged for a closer look

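Of the 58 Wnt genes counted in both lines, 4 moved by at least 1.5-fold in opposite directions. Over all 11134 genes counted in both, 1.77% were higher in HeyC2 and lower in SKOV3, and 1.38% were the reverse. DKK1, 1 of the 4, was chosen because it was seen to move in this way. The difference between the lines was not tested because each condition had 1 library. DKK1 had a relative log2 change of 1.89 in HeyC2 and -3.39 in SKOV3. WNT5A had -0.84 in HeyC2 and 2.68 in SKOV3. FZD8, a Frizzled receptor, had -1.51 in HeyC2 and 0.73 in SKOV3. WNT7A, a ligand, had 0.79 in HeyC2 and -1.03 in SKOV3. These directions depend on the reference for some of the genes. On the deposited values without centring, WNT5A in HeyC2 was 0.80. The deposited FPKM of FZD8 in HeyC2 control and TET1 was 18.44 and 19.76. That of WNT7A in SKOV3 was 53.77 and 39.91, a fall of less than 1.5-fold.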

How the results depend on the processing

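No paired analysis was possible because each condition had 1 library. Of 356 values recomputed under the alternatives, 278 stayed within their counting error or 1.5-fold of the main count, 71 moved beyond it and 7 more, all of them values past 1.5-fold, changed sign. The relative log2 change of DKK1 kept its direction under every alternative, at 1.87 to 3.63 in HeyC2, -3.67 to -2.84 in SKOV3 and 5.15 to 6.47 for the difference. On the deposited values without centring, where GAPDH is the reference and the all-gene median is above 0, DKK1 was 3.63, -2.84 and 6.47, while in HeyC2 WNT5A became 0.80, WNT5B 0.72 and LRP6 0.84, and the difference between lines became 0.10 for DKK3, 0.071 for WNT5B and 0.16 for CTNNB1. Values inside the limits changed sign there too, such as CTNNB1 at 1.28, TCF7L2 at 1.13 and DKK3 at 1.34 in HeyC2 and the TCF7L2 difference at 0.49. On that scale 8 members were higher and 0 lower in HeyC2 and 7 higher in SKOV3, and of all Wnt genes 61 rose and 0 fell in HeyC2, against 45 and 3 in SKOV3. The all-gene median on that scale was 1.63 in HeyC2 and 0.58 in SKOV3. Most genes of HeyC2 therefore pass 1.5-fold there, and these counts are not particular to Wnt genes. Centred on its chromosome arm, LRP6 in HeyC2 was 0.024. At 2-fold, 1 member was lower in HeyC2 and 2 were higher in SKOV3, and of all Wnt genes 7 rose and 4 fell in HeyC2, against 11 and 4 in SKOV3. At 1.2-fold, 5 members were lower in HeyC2, and of all Wnt genes 23 rose and 16 fell in HeyC2, against 35 and 19 in SKOV3. With a mean of at least 5 FPKM, and with the constant removed but no centring, 6 Wnt genes were lower in SKOV3, and with TPM rescaling and no centring 43 were higher there. The share of all genes called was computed at the main setting only. The counts under the alternatives therefore show how the calls shift and cannot be set against all genes. Depth limits AXIN2 in HeyC2, WNT5B in SKOV3 and SFRP2 in all 4 libraries. With 1 library for each condition, an effect of TET1 and of any other difference between the libraries of a line cannot be told apart.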
